A study of Mus musculus with 12 samples.

Results

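AP-1 (activator protein 1) and related bZIP (basic leucine zipper) transcription factors were described in bone marrow-derived macrophages (BMDM) from mice that were wild type (wt) or lacked Treml4 (Treml4-/-). The members were chosen by gene symbol and are Fos, Fosb, Fosl1, Fosl2, Jun, Junb, Jund, Atf3, Batf and Batf2, that is 10 of the 43280 genes in the table of expression values. In all, 9 of the 10 passed a filter on low values, at least 1 CPM (reads counted on the gene, scaled to the total of the library) in at least 2 of the 12 libraries, and Fosb did not.

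bZIP proteins bind DNA as dimers held together by a leucine zipper. FOS proteins pair with JUN proteins, JUN proteins also pair with themselves and with ATF and BATF proteins, and BATF lacks a transactivation domain of its own and acts together with JUN partners and IRF factors. LPS (lipopolysaccharide) is a component of the bacterial outer membrane that macrophages sense through TLR4, which signals to AP-1 through MAP kinases. Fos, Jun and Junb are classical immediate early genes, Fosl1, Fosl2 and Batf respond more slowly in many cell types, ATF3 is a stress-induced factor known to restrain TLR4 target genes, and Batf2 is an interferon-responsive gene of macrophages.

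The cells came from mice on a C57BL6 background and were grown from bone marrow with M-CSF (macrophage colony-stimulating factor). In both genotypes M0 cells received vehicle (PBS), and M1-8 h and M1-12 h cells received LPS at 100 ng/ml for 8 h or 12 h. There were 2 biological replicates in each of the 6 groups, and the labels give neither the age of the mice nor whether replicates came from separate animals, so p-values measure the spread between these libraries. There was 1 vehicle group per genotype, and the labels do not say whether vehicle was given for 8 h or 12 h.

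Between 48008751 and 58500792 reads were counted per library, so that 3 reads, taken as the limit of detection for counting error only, were worth 0.0513 to 0.0625 CPM. Treml4, a receptor of the TREM family and the deleted gene, was at 3.95 to 13.2 CPM in the wt libraries and had 0 reads in the 6 Treml4-/- libraries. The 7 macrophage markers measured were above 1 CPM in every group and summed to 8398 to 25804 CPM. The 4 T cell markers summed to at most 0.0771 CPM, the 4 B cell markers to at most 6.48 CPM, the 4 dendritic cell markers to at most 7.69 CPM, and the 4 fibroblast markers to at most 2.39 CPM. The 4 neutrophil markers summed to 28.6 to 75.1 CPM at wt M0 and 74.0 to 90.0 CPM at Treml4-/- M0, to 51.6 to 54.7 and 64.7 to 82.2 CPM at 8 h, and to 40.3 to 50.5 and 47.2 to 59.1 CPM at 12 h. Ly6g, the defining neutrophil marker, measured 0.0964 and 0.0393 CPM at wt M0 and 0.0815 and 0.1309 CPM at Treml4-/- M0. After LPS Ly6g was at most 0.0202 CPM in the wt libraries and had 0 reads in the Treml4-/- libraries. All these Ly6g values were near or below the limit of detection. S100a8 went the other way, from 20.8 and 8.79 CPM at wt M0 to 34.4 and 30.7 CPM at wt M1-8 h. In Treml4-/- cells it went from 18.8 and 26.4 CPM at M0 to 50.3 and 39.9 CPM at 8 h. S100a9 and Mpo were lower in the 12 h libraries than in the M0 libraries of both genotypes. The part of these markers in the differences below was not tested.

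The members were not equally abundant. Levels of different genes were compared as CPM per kb of exon, with exon lengths from the GENCODE M21 annotation of GRCm38. At M0, Atf3 had the highest level with 233 ± 22.8 CPM per kb (SD, n = 4 libraries of both genotypes), followed by Junb with 94.5 ± 13.8, Fos with 66.6 ± 8.98, Jund with 49.6 ± 10.6 and Jun with 31.3 ± 2.11 CPM per kb. Fos and Jund overlapped between libraries, and the other neighbours in this order did not. Fosl2, Batf, Batf2, Fosl1 and Fosb followed with 5.01, 1.14, 0.967, 0.399 and 0.0265 CPM per kb at M0. At 8 h Atf3 (352 ± 18.8 CPM per kb), Junb (235 ± 39.5) and Batf2 (92.6 ± 4.41) led, followed by Jund with 53.7 ± 10.4 CPM per kb. Fos, Batf, Fosl2 and Jun came next at 8 h with means of 33.7, 20.2, 14.4 and 12.8 CPM per kb, and each of these overlapped with its neighbour. At 12 h the first 3 were again Atf3 (625 ± 27.8 CPM per kb), Junb (169 ± 32.0) and Batf2 (88.5 ± 6.19), and Jund and Jun overlapped with means of 42.9 and 34.6 CPM per kb.

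**Figure D1:**
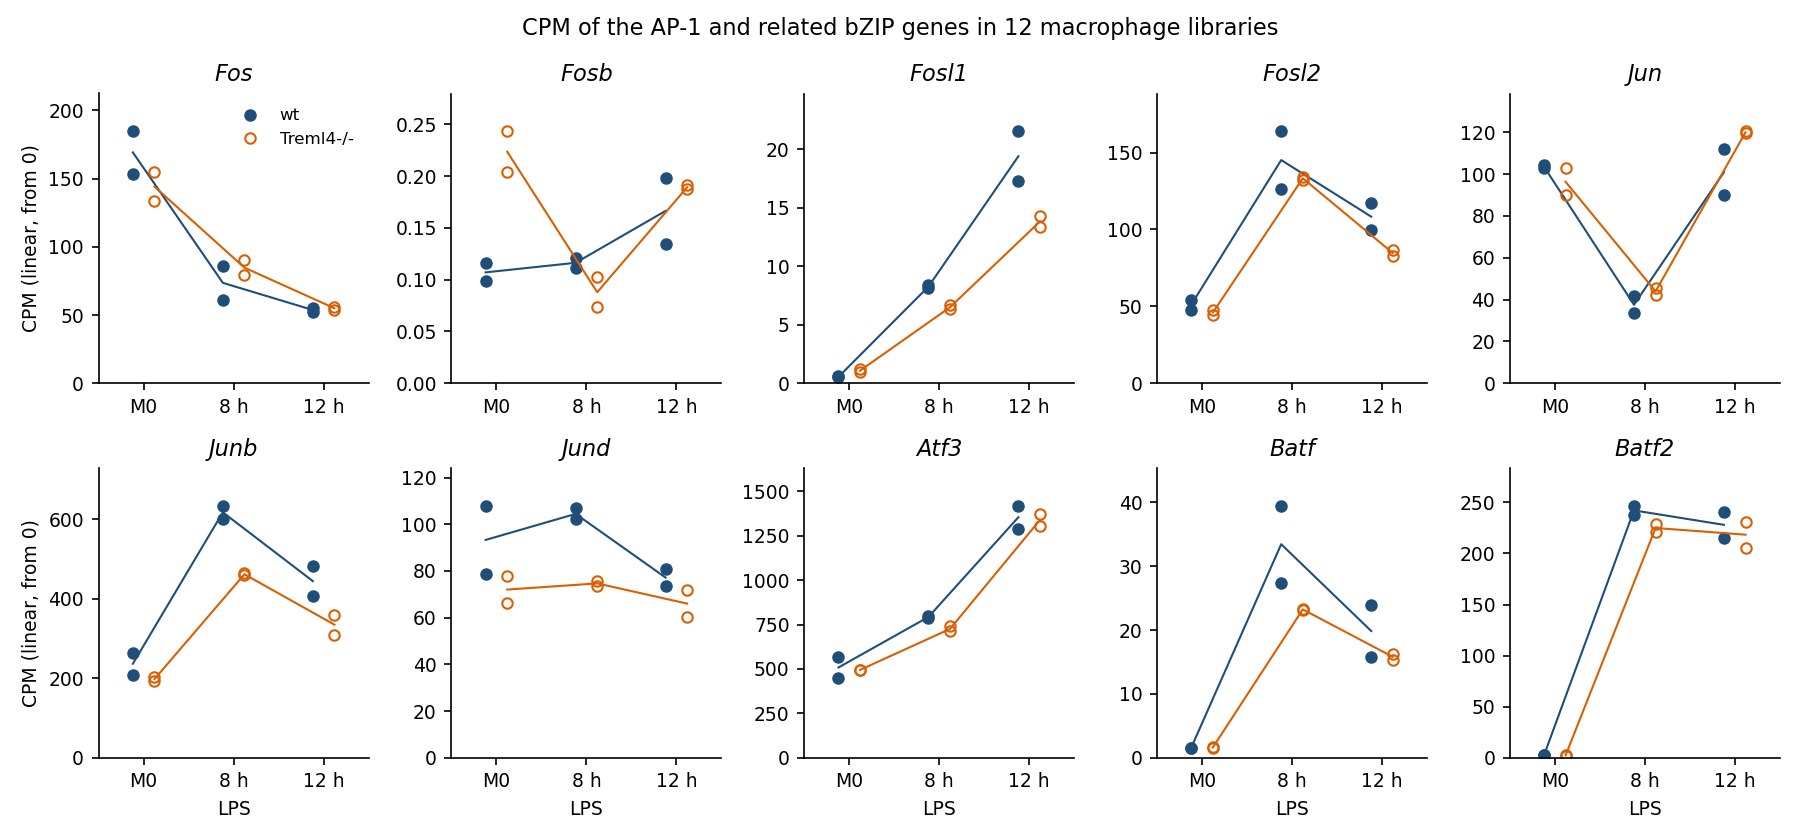
CPM on a linear axis from 0 (vertical) at M0 and after 8 h and 12 h of LPS (horizontal), one panel per gene, for wt (filled) and Treml4-/- (open) libraries; each point is 1 library and lines join the means of 2. Fos fell in CPM at both times (at 8 h not when scaled by the median of ratios), Jun was low at 8 h alone, Fosl1 and Atf3 were highest at 12 h, and Junb, Fosl2, Batf and Batf2 had their highest means at 8 h; Fosb stayed at or below 0.243 CPM.

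The first question was how each gene responded to LPS averaged over both genotypes. CPM were compared on the log2(CPM + 1) scale with limma, and a gene was called when its Benjamini-Hochberg adjusted p was under 0.05 and its fold change at least 1.4. At 8 h, 6 of the 9 tested members were called higher than at M0, against 17.1% of all 12086 tested genes, and 2 were called lower, against 59.8% of all genes. At 12 h, 6 were called higher, against 16.3% of all genes, and 1 was called lower, against 60.3%. Between 8 h and 12 h, 3 members rose, against 13.5% of all genes, and 3 fell, against 18.7%. The median log2 difference of the members was 1.30 at 8 h and 0.97 at 12 h, beside a median of all genes of -0.72 and -0.76.

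That shift of all genes depends on how libraries are scaled. When libraries were scaled by the median of ratios instead of by their totals, the median of all genes came to -0.01 at 8 h and 0.00 at 12 h, and the members' medians to 2.10 and 1.80. Decreases in CPM below are therefore to be read beside the median of all genes, and where the direction of a member turned under another scaling this is stated with the gene. In these bulk libraries, fewer cells of a type and less RNA per cell cannot be told apart.

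**Figure D2:**
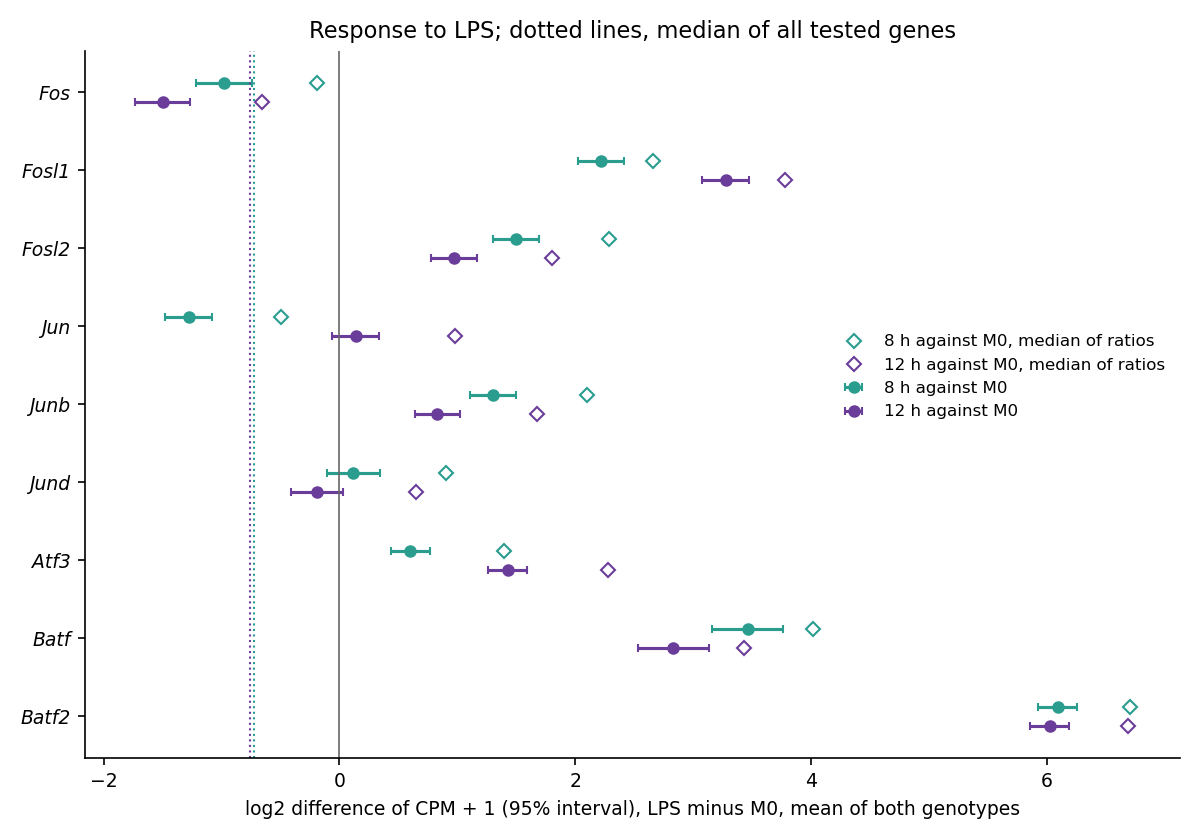
Log2 difference of CPM + 1 between LPS and M0 (horizontal, mean of both genotypes) for the 9 tested genes; filled circles with 95% intervals are scaled by library totals, open diamonds are scaled by the median of ratios, and dotted lines are the medians of all tested genes at 8 h (-0.72) and 12 h (-0.76). Batf2 lies near 6 at both times, and Fos, Jun and Jund are the genes whose call differs between these scalings.

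Of the FOS family, Fos encodes the classical partner of JUN proteins and was the member that fell most by 12 h. It lies at chr12:85473890-85477273 (GRCm38, plus strand). Fos measured 154 and 185 CPM in wt and 133 and 155 CPM in Treml4-/- cells at M0, 85.9 and 61.3 CPM in wt and 90.1 and 79.4 CPM in Treml4-/- at 8 h, and 55.5 and 52.0 CPM in wt and 56.2 and 53.8 CPM in Treml4-/- at 12 h. In CPM, every LPS library was below every M0 library, and every 12 h library was below every 8 h library. The log2 difference from M0 was -0.98 ± 0.11 (SE) at 8 h (limma adjusted p = 3.26e-06) and -1.50 ± 0.11 at 12 h (limma adjusted p = 6.62e-08). The medians of all genes were -0.72 and -0.76. With libraries scaled by the median of ratios, the 8 h difference was -0.19 and was not called (limma adjusted p = 0.131), while that at 12 h was -0.66. Under that scaling the 8 h libraries overlapped with the M0 libraries.

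Fosl1 encodes FRA1, a FOS protein without the transactivation domain of FOS. It lies at chr19:5447547-5455946 (plus strand) and went from near the filter to a clear signal. Fosl1 measured 0.501 and 0.590 CPM in wt and 1.20 and 0.954 CPM in Treml4-/- at M0, 8.15 and 8.37 CPM in wt and 6.34 and 6.66 CPM in Treml4-/- at 8 h, and 17.3 and 21.6 CPM in wt and 14.3 and 13.4 CPM in Treml4-/- at 12 h. The 3 time points did not overlap in either genotype. The log2 difference was 2.22 ± 0.09 (SE) at 8 h (limma adjusted p = 5.76e-10), 3.28 ± 0.09 at 12 h (limma adjusted p = 2.83e-11) and 1.06 ± 0.09 between 8 h and 12 h (limma adjusted p = 2.48e-06). Fosl1 shares 1163 exon bases with Ccdc85b on the opposite strand, which measured at most 10.2 CPM. The libraries were strand-specific, but whether the counting used strand is not given in the sources used here, so reads in that stretch cannot be told apart with certainty.

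Fosl2 encodes FRA2 and lies at chr5:32135801-32157842 (plus strand). It measured 54.4 and 47.7 CPM in wt and 44.4 and 47.5 CPM in Treml4-/- at M0, 164 and 126 CPM in wt and 134 and 132 CPM in Treml4-/- at 8 h, and 99.5 and 117 CPM in wt and 86.7 and 82.7 CPM in Treml4-/- at 12 h. All LPS libraries were above all M0 libraries, and the 8 h libraries were above the 12 h libraries. The log2 difference was 1.50 ± 0.09 at 8 h (limma adjusted p = 1.44e-08) and 0.97 ± 0.09 at 12 h (limma adjusted p = 6.95e-07). It fell by 0.53 from 8 h to 12 h (limma adjusted p = 3.83e-04), a change of 1.44-fold that came below the 1.4-fold threshold when scaled by the median of ratios (-0.48). The call was also lost without wt M1-8 h replicate 1 (-0.44) or wt M1-12 h replicate 1 (-0.47). The decline of Fos from 8 h to 12 h behaved alike, at -0.52 (limma adjusted p = 0.00146) and -0.47 when scaled by the median of ratios. That call was lost without wt M1-8 h replicate 1 (-0.40) or Treml4-/- M1-8 h replicate 1 (-0.48).

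Fosb, at chr7:19302696-19310051 (minus strand), encodes the fourth FOS protein and was near the limit of detection. It had 4 to 13 reads per library, that is 0.0732 to 0.243 CPM, reached 1 CPM in 0 libraries and was not tested.

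With Fos lower and Fosl1 and Fosl2 higher after LPS, the make-up of the FOS family differed between times. Of the summed CPM per kb of the FOS family, Fos made up 91.6% to 93.8% at M0, 60.2% to 69.3% at 8 h and 49.3% to 60.2% at 12 h (range of 4 libraries at each time). Fosl1 made up 0.346% to 0.954% at M0, 5.64% to 9.52% at 8 h and 17.3% to 23.6% at 12 h. Fosl2 made up 5.88% to 7.89%, 25.1% to 30.2% and 22.4% to 27.0%. Such shares are taken within a library and do not depend on how libraries are scaled. They do depend on the exon lengths used, 9.68 kb for Fosl2 and 2.352 kb for Fos. In reads without regard to length, there were 0.258 to 0.354 Fosl2 reads per Fos read at M0. After LPS there were 1.49 to 2.25, so Fosl2 had more reads than Fos in every LPS library. The shares and this ratio are given as a description and were chosen after the values had been seen.

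**Figure D3:**
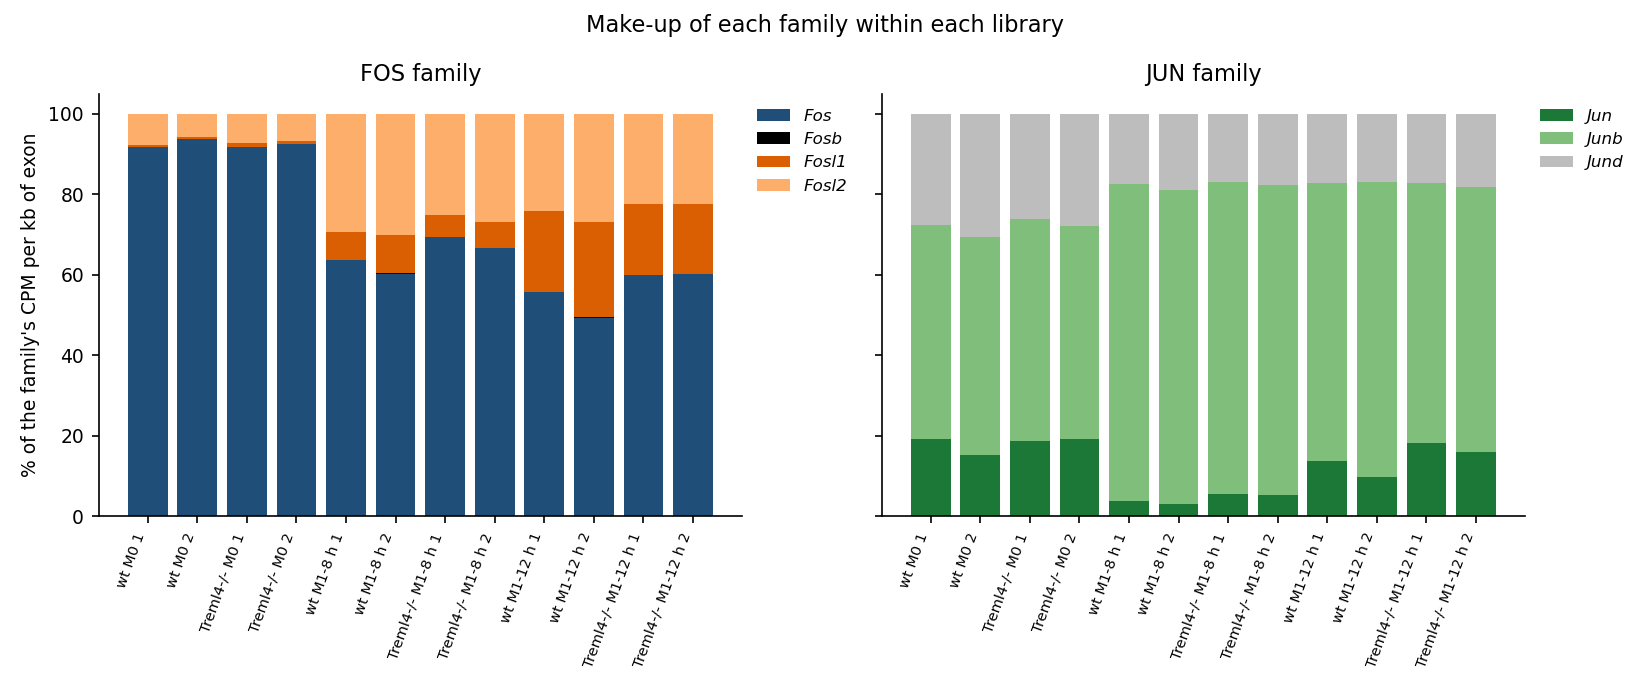
Share of each gene in the summed CPM per kb of exon of its family (vertical, percent) in each of the 12 libraries (horizontal, labelled by genotype, group and replicate number), for the FOS family (left) and the JUN family (right). The share of Fos is smaller and those of Fosl2 and Fosl1 are larger after LPS, and Jun shrinks to 3.12% to 5.49% of the JUN family at 8 h.

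Within the JUN family, Jun and Junb moved in opposite directions at 8 h. Jun, at chr4:95049034-95052222 (minus strand), encodes c-JUN, the strongest activator of the family. It measured 104 and 103 CPM in wt and 89.9 and 103 CPM in Treml4-/- at M0, 41.7 and 33.4 CPM in wt and 45.6 and 42.3 CPM in Treml4-/- at 8 h, and 112 and 90.0 CPM in wt and 120.4 and 119.5 CPM in Treml4-/- at 12 h. The 8 h libraries were below all others, and M0 and 12 h libraries overlapped. Jun fell by 1.28 ± 0.09 at 8 h (log2, limma adjusted p = 5.97e-08), beside a median of all genes of -0.72. It rose by 1.42 ± 0.09 from 8 h to 12 h (limma adjusted p = 2.99e-07). The 12 h value differed from M0 by 0.14 (95% interval -0.06 to 0.33, limma adjusted p = 0.169). When scaled by the median of ratios, the 8 h difference was -0.49 and still called, and the 12 h difference was 0.98 and called higher. Jun shares 232 exon bases with the antisense gene Junos, which measured at most 5.01 CPM.

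Junb encodes a weaker activator than c-JUN and was the most abundant JUN gene per kb at each time. It lies at chr8:84974484-84978718 (minus strand). Junb measured 209 and 264 CPM in wt and 192 and 204 CPM in Treml4-/- at M0, 634 and 601 CPM in wt and 464 and 459 CPM in Treml4-/- at 8 h, and 406 and 483 CPM in wt and 310 and 360 CPM in Treml4-/- at 12 h. All LPS libraries were above all M0 libraries. The log2 difference was 1.30 ± 0.09 at 8 h (limma adjusted p = 3.93e-08) and 0.83 ± 0.09 at 12 h (limma adjusted p = 2.23e-06). From 8 h to 12 h Junb differed by -0.47 ± 0.09 (limma adjusted p = 7.12e-04), which is 1.39-fold and so under the fold threshold. Without wt M1-8 h replicate 2, wt M1-12 h replicate 2 or Treml4-/- M1-12 h replicate 2 that difference was -0.49, -0.53 and -0.53 and was called. Junb shares 173 exon bases with Prdx2 on the opposite strand, which measured up to 300.3 CPM.

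Jund, at chr8:70698949-70700616 (plus strand), encodes the JUN protein that many cells express without stimulation. It measured 78.7 and 108 CPM in wt and 66.3 and 77.8 CPM in Treml4-/- at M0, 102 and 107 CPM in wt and 73.5 and 75.9 CPM in Treml4-/- at 8 h, and 73.6 and 80.8 CPM in wt and 60.2 and 71.9 CPM in Treml4-/- at 12 h. In each genotype the M0 libraries overlapped with the libraries of both LPS times. Neither the 8 h difference of 0.12 (95% interval -0.11 to 0.34, limma adjusted p = 0.29) nor the 12 h difference of -0.19 (95% interval -0.41 to 0.03, limma adjusted p = 0.0971) was called. Scaled by the median of ratios, Jund was called higher at both times, by 0.91 and 0.65, so the sign at 12 h turned with the scaling. Jund shares 877 of its 1668 exon bases with the antisense gene Gm11175, which measured at most 0.384 CPM.

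The number of Junb reads per Jun read in the same library is free of any scaling. It was 2.01 and 2.57 in wt and 2.14 and 1.99 in Treml4-/- at M0. At 8 h it was 15.2 and 18.0 in wt and 10.2 and 10.9 in Treml4-/-, and at 12 h it was 3.63 and 5.37 in wt and 2.57 and 3.01 in Treml4-/-. The ratio was thus highest at 8 h in both genotypes, and at each LPS time the wt libraries were above the Treml4-/- libraries. It was chosen after the values had been seen and was not tested. Of the summed CPM per kb of the JUN family, Junb made up 52.9% to 55.2% at M0, 77.3% to 78.8% at 8 h and 64.6% to 73.3% at 12 h, and Jund 26.2% to 30.6%, 16.9% to 19.1% and 16.9% to 18.2%.

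Atf3 was the most abundant of the 10 genes per kb at every time. It lies at chr1:191170296-191218039 (minus strand). Atf3 measured 449 and 568 CPM in wt and 494 and 496 CPM in Treml4-/- at M0, 796 and 789 CPM in wt and 739 and 711 CPM in Treml4-/- at 8 h, and 1418 and 1289.7 CPM in wt and 1304 and 1373 CPM in Treml4-/- at 12 h. The 3 time points did not overlap. The log2 difference was 0.60 ± 0.07 at 8 h (limma adjusted p = 1.12e-05), 1.43 ± 0.07 at 12 h (limma adjusted p = 4.56e-09) and 0.83 ± 0.07 between 8 h and 12 h (limma adjusted p = 3.96e-06). The 8 h call was lost under quantile normalization, where the difference was 0.39.

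The BATF genes showed the largest increases of the members at 8 h, and at 12 h Batf2 was again first and Fosl1 lay above Batf. Batf2, at chr19:6140983-6172476 (plus strand), measured 2.31 and 2.62 CPM in wt and 2.69 and 2.13 CPM in Treml4-/- at M0, 247 and 238 CPM in wt and 221 and 229 CPM in Treml4-/- at 8 h, and 215.5 and 241 CPM in wt and 206 and 231 CPM in Treml4-/- at 12 h. It rose by 6.09 ± 0.07 at 8 h (log2, limma adjusted p = 5.6e-14), which is 68.3-fold on the scale of CPM + 1, and by 6.03 ± 0.07 at 12 h (limma adjusted p = 5.99e-14). The difference between 8 h and 12 h was -0.07 (95% interval -0.23 to 0.10, limma adjusted p = 0.466), and its sign turned under quantile normalization (0.07). Batf2 shares 51 exon bases with Arl2 on the opposite strand, which measured at most 26.2 CPM.

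Batf, at chr12:85686669-85709087 (plus strand), is best known as a partner of JUN and IRF4 in lymphocytes. It measured 1.54 and 1.61 CPM in wt and 1.73 and 1.52 CPM in Treml4-/- at M0, 27.4 and 39.4 CPM in wt and 23.3 and 23.1 CPM in Treml4-/- at 8 h, and 15.8 and 23.9 CPM in wt and 15.3 and 16.3 CPM in Treml4-/- at 12 h. It rose by 3.46 ± 0.14 at 8 h (log2, limma adjusted p = 4.23e-10) and by 2.83 ± 0.14 at 12 h (limma adjusted p = 2.12e-09), and fell by 0.63 from 8 h to 12 h (limma adjusted p = 0.00203). Batf thus stayed below Batf2 in every LPS library, with 0.0704 to 0.166 Batf reads per Batf2 read.

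The second question was whether the genes differed between wt and Treml4-/- cells at the same time. No member was called at M0, where 0.0993% of all genes were called, at 8 h (0.0910% of all genes) or at 12 h (0.132%). At an unadjusted p under 0.05 there were 2 members at M0 (Fosl1 and Jund), against 3.35% of all genes, 4 at 8 h (Batf, Fosl1, Junb and Jund), against 21.0%, and 3 at 12 h (Fosl1, Fosl2 and Junb), against 7.55%. Both wt libraries were above both Treml4-/- libraries for 4 members at M0 (10.8% of all genes), 6 at 8 h (18.0%) and 4 at 12 h (12.3%). The opposite held for 1 member at M0 (Fosl1; 18.0% of all genes), 1 at 8 h (Jun; 33.9%) and 1 at 12 h (Jun; 30.8%). Junb and Jund are among the genes that the study named from these libraries, so their values here are not independent of that choice. The study reported both as differentially expressed and higher in wt cells after LPS, at the same thresholds of adjusted p and fold. Its p-values came from DESeq2 rather than limma. In the limma comparisons here, neither gene was called at M0, 8 h or 12 h. Scaled by the median of ratios, Junb at 8 h measured 775 and 761 CPM in wt and 532 and 517 CPM in Treml4-/- libraries. Under that scaling Jund at 8 h measured 125 and 135 CPM in wt and 84.3 and 85.4 CPM in Treml4-/- libraries. For both genes the genotypes then lay further apart in fold than by library totals, and neither gene was called. Why the calls differ was not tested.

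**Figure D4:**
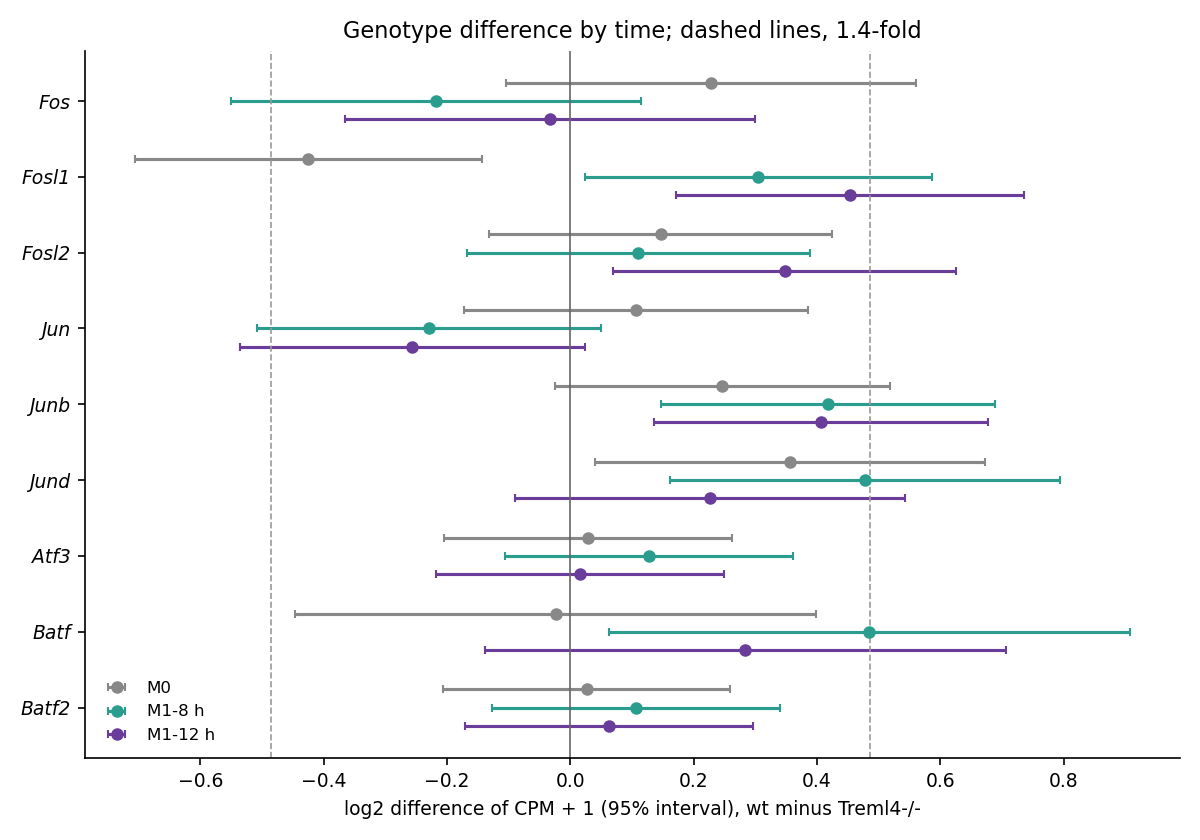
Log2 difference of CPM + 1 between wt and Treml4-/- (horizontal, positive where wt is higher, with 95% intervals) for the 9 tested genes at M0, 8 h and 12 h; dashed lines mark a fold of 1.4. Junb and Jund are above 0 at all 3 times, Fosl1 is below 0 at M0 and above 0 after LPS, and no gene was called.

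Junb and Jund were the members whose wt libraries were above the Treml4-/- libraries at all 3 times. At single times this held for 10.8% (M0), 18.0% (8 h) and 12.3% (12 h) of all genes. The share of all genes for which it held at all 3 times was not counted. For Junb the log2 difference, wt minus Treml4-/-, was 0.25 ± 0.12 at M0, 0.42 ± 0.12 at 8 h (limma adjusted p = 0.158) and 0.41 ± 0.12 at 12 h (limma adjusted p = 0.384). For Jund it was 0.36 ± 0.14 at M0, 0.48 ± 0.14 at 8 h (limma adjusted p = 0.161) and 0.23 ± 0.14 at 12 h (limma adjusted p = 0.808). Averaged over the 3 times, a comparison added after the values had been seen, Junb was higher in wt by 0.36 ± 0.07, or 1.28-fold (limma adjusted p = 0.0483), and Jund by 0.35 ± 0.08, or 1.28-fold (limma adjusted p = 0.0819). Junb passed the p threshold and not the fold threshold in that comparison, so 0 members were called, against 0.414% of all genes. At an unadjusted p under 0.05 there were 4 members (Batf, Fosl2, Junb and Jund), against 20.1% of all genes. Over the processing alternatives the adjusted p of that average ranged from 0.0107 to 0.297 for Junb and from 0.0115 to 0.420 for Jund.

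Fosl1 differed in sign between M0 and the LPS times. It was lower in wt at M0, by -0.42 ± 0.13 (limma adjusted p = 0.891), and higher in wt at 8 h, by 0.30 ± 0.13 (limma adjusted p = 0.215), and at 12 h, by 0.45 ± 0.13 (limma adjusted p = 0.310). The test of the difference itself compared the LPS response of wt with that of Treml4-/- cells, and gave 0.73 ± 0.18 at 8 h (limma adjusted p = 0.729) and 0.88 ± 0.18 at 12 h (limma adjusted p = 0.999) for Fosl1. No member was called in this test at 8 h or at 12 h, as against 0.00827% of all genes at each time, and Fosl1 was the 1 member with an unadjusted p under 0.05 at 8 h (6.67% of all genes) and at 12 h (3.82%). Fosl1 had as few as 26 reads in a library at M0, the lowest count among the 9 tested members. Its M0 means, 0.546 CPM in wt and 1.08 CPM in Treml4-/-, were near or below the 1 CPM added before taking logs. The log2 differences of Fosl1 that involve M0 are therefore smaller than those of CPM itself.

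Batf was higher in wt at 8 h by 0.48 ± 0.19 (limma adjusted p = 0.201), and its wt replicates at 8 h, 27.4 and 39.4 CPM, lay further apart than its Treml4-/- replicates, 23.3 and 23.1 CPM. Fosl2 was higher in wt at 12 h by 0.35 ± 0.13 (limma adjusted p = 0.522). Jun was lower in wt at 8 h by -0.23 ± 0.13 (limma adjusted p = 0.314) and at 12 h by -0.26 ± 0.13 (limma adjusted p = 0.717). For Atf3 and Batf2 the 95% intervals of the genotype difference stayed between -0.22 and 0.36 at all 3 times.

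Over the 12 libraries, Batf was most like Batf2 in its log2(CPM + 1) values (Pearson r = 0.98), Fosl2 was most like Junb (r = 0.96) and Fosl1 most like Atf3 (r = 0.94). Fos was most unlike Fosl1 (r = -0.98). Jun, Fos and Jund had no close partner. The highest r among the other members was 0.17 for Jun (to Atf3), 0.24 for Fos (to Jund) and 0.39 for Jund (to Junb). Jun was most unlike Junb (r = -0.70). These values describe likeness between genes; the libraries share 3 treatments and the scaling, so no p is given.

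The stretches before the start sites of Fos, Jun and Junb are shown because these 3 immediate early genes took different courses, in CPM Fos falling at both times, Jun falling and returning, and Junb rising. The sequences are the 250 bases before the RefSeq start (GRCm38.p6), 5′ to 3′ on the strand of the gene, and hold no annotated exon in GENCODE M21. Capitals mark matches to the kappaB motif, TATAAA and TNACNTCA, and positions count back from the start site at -1. Fos is at chr12:85473640-85473889 (plus strand), Jun at chr4:95052223-95052472 (minus strand) and Junb at chr8:84978749-84978998 (minus strand).
Fos: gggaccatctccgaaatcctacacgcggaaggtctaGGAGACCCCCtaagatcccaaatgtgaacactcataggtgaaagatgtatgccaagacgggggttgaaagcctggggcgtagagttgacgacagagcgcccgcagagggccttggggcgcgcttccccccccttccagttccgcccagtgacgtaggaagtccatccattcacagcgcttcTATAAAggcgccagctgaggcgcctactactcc
Jun: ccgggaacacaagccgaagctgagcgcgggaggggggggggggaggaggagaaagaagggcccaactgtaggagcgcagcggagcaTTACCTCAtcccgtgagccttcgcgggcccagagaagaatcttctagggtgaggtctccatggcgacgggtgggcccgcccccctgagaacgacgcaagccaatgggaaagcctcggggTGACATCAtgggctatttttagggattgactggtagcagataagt
Junb: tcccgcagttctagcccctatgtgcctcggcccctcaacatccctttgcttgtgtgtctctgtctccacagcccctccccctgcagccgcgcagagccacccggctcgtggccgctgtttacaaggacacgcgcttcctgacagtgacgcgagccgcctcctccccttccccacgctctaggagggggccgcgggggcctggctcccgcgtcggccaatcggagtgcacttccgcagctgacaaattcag

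The Fos window held 1 match to the kappaB motif, GGAGACCCCC at -214 to -205 (read on the minus strand), and TATAAA at -33 to -28. The Jun window held 2 matches to TNACNTCA, a looser form of the CRE motif TGACGTCA, namely TTACCTCA at -164 to -157 and TGACATCA at -45 to -38. That motif was added after the windows had been read. The 250 bases before Junb held no match to the motifs searched. RefSeq promoters of 300 bases (250 before and 50 after the start) were at hand for 8 of the 10 members. TGACTCA, TGACGTCA and the serum response element had no match in these 8 promoters, and no match says only that these letters are not in the window. The kappaB motif also matched in the promoters of Fosb and Fosl2, and TNACNTCA in those of Jund and Atf3 (in Atf3 TTACGTCA at -10 to -3). Not all RefSeq starts match the gene spans given above. The 250 bases before the Fosl2 start lie inside its span and are all annotated exon in GENCODE M21. Those of Atf3 also lie inside its span. Those of Jund, at chr8:70697489-70697738, end before its span begins at 70698949. Fosl2 also held a match to the interferon-stimulated response element, and Junb held TATAAA at 1 to 6, after the start. These motifs were thus not particular to Fos and Jun. Of all 32851 such promoters, searched on both strands, 5.202% held TGACTCA, 1.79% TGACGTCA, 4.505% the kappaB motif, 1.629% the serum response element, 3.443% the interferon-stimulated response element, 13.616% TATAAA and 16.42% TNACNTCA. TNACNTCA includes every TGACGTCA and does not match TGACTCA.

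Other bZIP genes were followed as lists by family, on the scale of library totals unless stated. Of 9 other ATF, JDP and BATF3 genes, 1 rose and 7 fell at 8 h, and 2 rose and 3 fell at 12 h, with medians of -0.65 and -0.43 beside -0.72 and -0.76 for all genes. With libraries scaled by the median of ratios, 2 rose and 1 fell at 8 h and 4 rose and 2 fell at 12 h. Jdp2, a repressor of AP-1, rose by 3.37 at 8 h and 3.63 at 12 h (limma adjusted p = 2.03e-11 and 1.24e-11), and Atf5 fell by 2.37 and 1.96. Of 7 MAF genes, 5 were tested, of which 3 rose and 2 fell at 8 h and 3 rose and 1 fell at 12 h. Maf rose by 2.64 and 2.94 and Maff by 2.18 and 2.30. The 6 C/EBP genes, myeloid differentiation and stress factors, included 2 that rose and 2 that fell at 8 h, and 2 that rose and 3 that fell at 12 h. Cebpa fell by 5.04 and 5.62, Cebpb rose by 1.61 and 1.64, Ddit3, which encodes the stress factor CHOP, rose by 2.44 at 12 h, and Cebpd rose by 0.57 at 8 h and fell by 2.17 at 12 h.

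Of the 8 CREB and CREM genes, 3 rose and 2 fell at 8 h and 2 rose and 1 fell at 12 h, with Crem, which also encodes the repressor ICER, higher by 3.21 and 2.81 and Creb5 by 2.47 and 2.51. Of 11 other bZIP genes, 8 were tested, of which 2 rose and 5 fell at 8 h and 1 rose and 5 fell at 12 h, near the 17.1% and 59.8% of all genes at 8 h. Dbp and Tef, factors of circadian output, fell by 3.88 and 3.78 at 8 h, and Nfil3, which binds the same sites as a repressor, rose by 2.80. All these values are log2 differences with limma adjusted p-values under the threshold, and each named gene kept its sign when libraries were scaled by the median of ratios. Under that scaling Atf1, Atf6, Atf6b, Mafg, Nfe2l1 and Xbp1, called lower at 8 h by library totals, had the opposite sign.

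**Figure D5:**
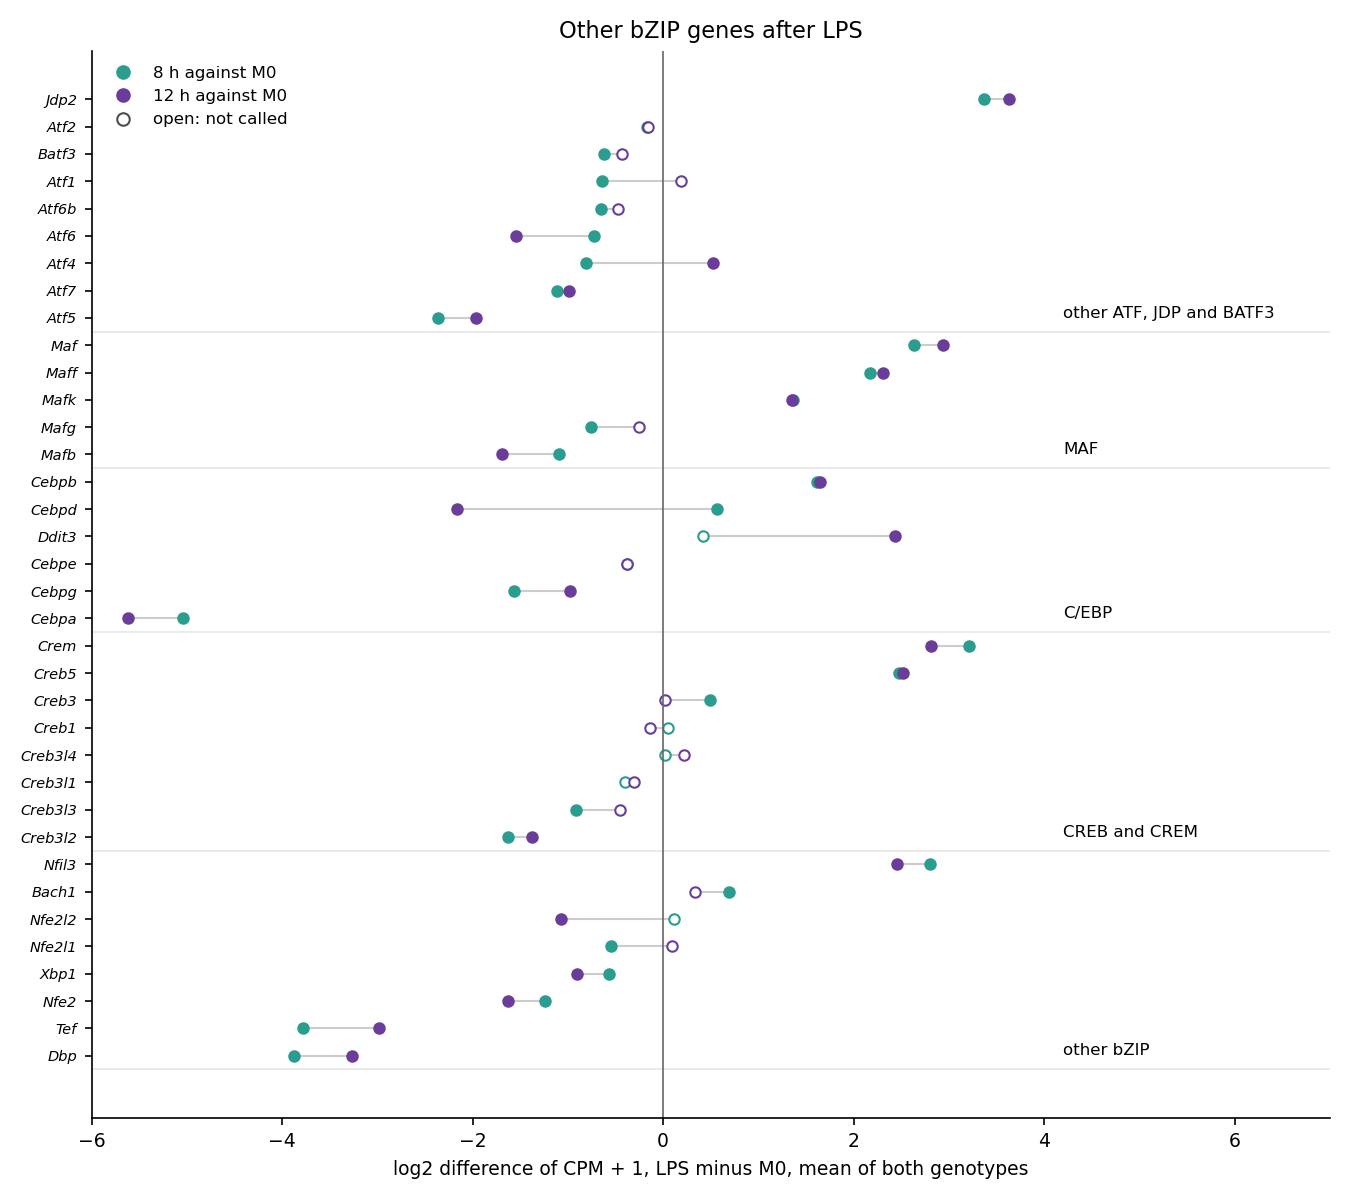
Log2 difference of CPM + 1 from M0 (horizontal, mean of both genotypes) at 8 h and 12 h for the tested genes of 5 lists of other bZIP factors, with filled points where the gene was called and open points where it was not. Jdp2 lies farthest to the right and Cebpa farthest to the left, and Cebpd and Ddit3 differ most between the times.

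Upstream of AP-1, 14 of 17 MAP kinase genes were tested, of which 4 rose and 8 fell at both times, with medians of -0.86 and -0.63. These falls are near the background, since 59.8% and 60.3% of all genes were called lower and their medians were -0.72 and -0.76. Mapk14, which encodes p38 alpha, fell by 2.96 and 1.86, whereas Map3k8, the kinase that relays TLR signals to ERK, rose by 2.39 and 1.62. Map2k4, a kinase of JNK, rose by 1.91 at 8 h. Of the 6 measured SRF and TCF genes, which bind or act at the serum response element of Fos, 1 rose and 5 fell at 8 h and 0 rose and 4 fell at 12 h, with Mkl2 lower by -2.30 and -1.34 and Mkl1 by -1.86 and -1.31. The medians of this list were -0.88 and -0.75. With libraries scaled by the median of ratios, 6 kinase genes of 13 tested rose and 3 fell at 8 h, 1 SRF or TCF gene rose and 2 fell, and Mapk14, Mkl1 and Mkl2 stayed negative. Under that scaling Srf and Elk4, called lower at 8 h by library totals (-0.67 and -0.74), came to 0.11 and 0.02, and Elk3 and Map2k2, called lower at 12 h (-0.65 and -0.75), came to 0.19 and 0.09.

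Of 10 other immediate early genes, which also mark handling stress, 9 were tested, of which 6 rose and 1 fell at 8 h and 6 rose and 3 fell at 12 h. Their medians were 2.00 and 2.21. Ier3 rose by 4.56 and 3.91, the heat shock genes Hspa1a and Hspa1b by 4.93 and 4.46 at 12 h, and Egr2 fell by 3.02 at 8 h. Ier2, called lower at 12 h (-0.59), came to 0.22 when libraries were scaled by the median of ratios. The part of handling in the values of Fos, Jun and Atf3 was not tested. No gene of any of these lists was called between genotypes at M0, 8 h or 12 h.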

How the data were processed

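RNA was sequenced as strand-specific, poly(A)-selected, paired-end libraries. The authors aligned reads with STAR and counted them on genes with Subread in their workflow, and the submitters' processing notes name mm10. The annotation and the strand setting of the counting are not given in the sources used here. The authors deposited log2 CPM in which 0.25 reads had been added as a prior, scaled to library size. The test had been planned for CPM, so the deposited log2 values were first turned back into CPM, and every value came to a whole number of reads within 0.01 reads.

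Of 43280 genes, 12086 reached 1 CPM in 2 or more libraries and were tested as log2(CPM + 1). The limma package (version 3.58.1, R 4.3.3) fitted 1 mean per group, all 12 libraries sharing 1 estimate of the spread and a trend in the prior variance. P-values were adjusted over all tested genes by the Benjamini-Hochberg method, and a call needed an adjusted p under 0.05 and a fold of at least 1.4. Differences between genotypes are wt minus Treml4-/-. Code was tested on simulated data. Other steps used pandas 2.3.3, numpy 2.4.6 and Python 3.11.15. Positions and exon lengths were taken from GENCODE M21 (GRCm38), and promoters from RefSeq (GRCm38.p6), matched by symbol.

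The members, gene lists and markers were chosen with earlier results of these data known. Named were all 10 members and, from each list, examples among the 3 called genes with the largest change at 8 h and at 12 h of LPS. Genes whose sign turned with the scaling were added after their values were seen. Alternatives were the scaling, the pseudocount, the filter, the fold threshold, the libraries fitted, voom on the recovered reads, the deposited values used directly, a replicate block, and leaving out each library.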

Additional observations from a re-analysis of the deposited data

How the results depend on the processing

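The LPS responses of the 9 tested members mostly held. Over the alternatives, 7 to 8 members were called at 8 h, 7 to 9 at 12 h and 4 to 8 between the times, and of 648 values 628 kept their direction and their side of the threshold. The 20 exceptions came from the scaling, the fold threshold and, for 7 values of Fos, Fosl2 and Junb between 8 h and 12 h, from leaving out a library. With the median of ratios, Jund at 12 h reversed to 0.65, and with quantile normalization to 0.19; Batf2 between 8 h and 12 h reversed to 0.070 with quantile normalization. Leaving out each library in turn called 8 members at 8 h, 7 at 12 h and 4 to 7 between the times, and 9195 to 9334, 9108 to 9264 and 3767 to 3979 genes of all. With no minimum fold, 7291 genes and also Junb and Jund were called between 8 h and 12 h, against 3885 genes with it.

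No member was called between genotypes at M0, 8 h or 12 h, or in the interactions, under any alternative run. With no minimum fold, 1 member, Junb, was called in the mean over the 3 time points. Of 818 genotype values and 432 interaction values of the members, 26 and 18 turned sign, in differences that were not called. The counts over all genes were small and moved more. At M0 there were 12 genes, 6 when only the compared libraries were fitted, and 7 to 219 on leaving out a library, with 219 without wt M0 replicate 1. At 8 h there were 11 genes, 5 with only the compared libraries, and 8 to 598 on leaving out a library, with 598 without Treml4-/- M1-8 h replicate 1. At 12 h there were 16 genes, 10 with voom, and 6 to 79 on leaving out a library, with 79 without wt M1-12 h replicate 1. The interaction at 8 h called 1 gene, 2 with no filter, 0 with voom or the deposited log2 values, and 1 to 3 on leaving out a library. That at 12 h called 1, 2 with quantile normalization, 0 with voom or the deposited log2 values, and 1 to 33 on leaving out a library. The mean over the 3 time points called 50 genes, 78 with a pseudocount of 0.1, 16 with no filter, 31 with a filter at 5 CPM, 119 with no minimum fold, and 20 to 183 on leaving out a library. The cause was not tested.

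Nothing in the labels says that a replicate number marks a shared animal, culture or day. Deviations of same-numbered wt and Treml4-/- libraries had r = -0.26 at M0, 0.30 at 8 h and 0.06 at 12 h. Within wt, r was 0.12 for M0 with 8 h, 0.06 for M0 with 12 h and 0.41 for 8 h with 12 h. The same pairs gave 0.46, -0.20 and -0.27 for the Treml4-/- libraries, so not every pair was above 0.1. A replicate block called 12, 12 and 15 genes between genotypes at M0, 8 h and 12 h, 9297, 9252 and 3889 genes for the LPS comparisons, 1 gene in each interaction and 55 genes in the mean over the 3 time points, and changed no count of members. A replicate block within each genotype called 9299, 9252 and 3894 genes for the LPS comparisons.

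With 2 libraries per group, precision differed between members. The SE of the genotype difference was 0.19 for Batf and 0.11 for Atf3 and for Batf2. The upper end of its 95% interval, which also depends on the estimate, was 0.91 for Batf at 8 h and at most 0.36 for Atf3 and Batf2.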
